A study of Homo sapiens with 26 samples.

Results

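The regions described here carried H3K27ac late after p53 activation and had no H3K4me1 at any time measured. They were taken from 87570 merged H3K27ac regions, which joined the peaks of 10 lists wherever these overlapped or touched. A region was kept if a peak overlapped it by at least 1 bp in both WT 10 h lists and in neither WT 0 h list, and if no peak of the 6 WT H3K4me1 lists overlapped it. This left 4637 regions, called late regions without H3K4me1 below. Without WT 10 h replicate 1 the rule gave 8692 regions and without replicate 2 it gave 10493. Of all merged regions, 11.4% met the late part of the rule (10018 regions) and 35.9% overlapped no H3K4me1 peak. The other 5381 late regions overlapped an H3K4me1 peak and are called late regions with H3K4me1. The regions were thus chosen by the WT 0 h, WT 10 h and H3K4me1 calls, so values from those lists are given as description and without a test.

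The series profiled 2 histone marks by ChIP-seq in HCT116, a human colorectal carcinoma cell line with functional p53. WT cells received DMSO, the drug vehicle (0 h), or Nutlin-3a for 1 h or 10 h, and H3K27ac and H3K4me1 were each measured in 2 biological replicates per time point. In a derivative line, labelled HCT116_RAD21, H3K27ac was measured after DMSO (0 h) and after 1 h of Nutlin-3a, again with 2 replicates each. This line carries the cohesin subunit RAD21 with an auxin-inducible degron; the study's methods describe degradation of RAD21 with the auxin analog 5-Ph-IAA ahead of Nutlin-3a in the cells used for these libraries. The peak names of its 0 h and 1 h lists both carry the term KD for knockdown, and the labels name only DMSO and Nutlin-3a. RAD21 0 h below thus means cells without Nutlin-3a, and in every comparison with WT the line and the loss of RAD21 cannot be told apart. H3K4me1 in that line was not analysed here, so the absence of H3K4me1 refers to WT cells. Nutlin-3a releases p53 from HDM2, its inhibitor and ubiquitin ligase.

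H3K27ac marks active promoters and active enhancers, whereas H3K4me1 is broadly deposited at enhancers, both primed and active, and flanks promoters. An acetylated enhancer therefore usually carries both marks, and active promoters have H3K4me1 on their shoulders. In transcribed gene bodies other marks, such as H3K36me3, are typical. Upon activation p53 binds a response element of a pair of decameric sites to induce its targets, and represses cell cycle genes indirectly through p21 and the DREAM complex.

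The strongest late regions without H3K4me1 included regions with a p53 response element, regions sharing a stretch of sequence, and regions in exon and intron sequence with neither in the window shown. The first 2 kinds overlapped, since the CCNG2 window printed first holds both. Windows of 300 bases around the summit in WT 10 h replicate 1 are printed from GRCh37, on the plus strand unless stated. In the first pair, capitals mark exact matches to the p53 response element without spacer. The first window, chr4:78263517-78263816, lies in an intron of CCNG2, which encodes cyclin G2, an unconventional cyclin that restrains proliferation. Its overlapping matches span 30 bases. The second window, chr5:152191609-152191908, lies outside coding genes and holds 1 match of 20 bases. Read on its minus strand, it is 86.7% identical to the CCNG2 window over 226 alignment columns, with a longest identical run of 60 bases, a likeness found after the values were seen.
CCNG2 intron: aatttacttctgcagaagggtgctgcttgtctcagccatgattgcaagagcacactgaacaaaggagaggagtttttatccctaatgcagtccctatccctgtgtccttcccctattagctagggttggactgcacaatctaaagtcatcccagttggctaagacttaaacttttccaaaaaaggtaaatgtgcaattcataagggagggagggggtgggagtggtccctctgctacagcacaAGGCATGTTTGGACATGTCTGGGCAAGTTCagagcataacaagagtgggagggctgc
chromosome 5, outside coding genes: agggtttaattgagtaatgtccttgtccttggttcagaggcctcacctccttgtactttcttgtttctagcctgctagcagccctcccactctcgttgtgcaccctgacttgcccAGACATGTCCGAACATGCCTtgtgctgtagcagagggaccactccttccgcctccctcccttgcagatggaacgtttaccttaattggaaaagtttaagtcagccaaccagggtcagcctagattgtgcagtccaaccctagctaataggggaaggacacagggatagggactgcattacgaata

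The next pair of windows shared a 17-base run with the CCNG2 window, shown in capitals. The window chr19:53798161-53798460 belongs to the strongest of the late regions without H3K4me1 and lies between genes. The window chr6:4384207-4384506, printed on the minus strand, lies in an annotated gene of a class other than protein-coding and ranked 6 by strength.
chromosome 19, between genes: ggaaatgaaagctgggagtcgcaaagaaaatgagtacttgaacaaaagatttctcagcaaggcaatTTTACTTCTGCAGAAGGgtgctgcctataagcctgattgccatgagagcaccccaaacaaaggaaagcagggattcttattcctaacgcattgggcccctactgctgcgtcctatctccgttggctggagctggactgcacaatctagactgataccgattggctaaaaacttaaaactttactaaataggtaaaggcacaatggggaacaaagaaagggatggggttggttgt
chromosome 6, minus strand: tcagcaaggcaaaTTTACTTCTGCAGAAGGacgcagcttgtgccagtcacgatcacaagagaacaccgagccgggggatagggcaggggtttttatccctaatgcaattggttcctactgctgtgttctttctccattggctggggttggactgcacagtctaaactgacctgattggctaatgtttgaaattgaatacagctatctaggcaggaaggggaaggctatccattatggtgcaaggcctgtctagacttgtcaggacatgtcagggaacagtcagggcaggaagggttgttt

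The last pair shows windows inside coding genes, where most of the regions lay, and capitals mark CpG dinucleotides. Both belong to the 10 strongest regions and neither was picked as typical. The window chr19:52716018-52716317 lies in PPP2R1A, the scaffold subunit of protein phosphatase 2A, and held 11 CpG dinucleotides at a GC content of 61.7%, above the upper quartile of 55.0% for all late regions without H3K4me1. The window chr16:89848929-89849228 lies in an intron of FANCA, a subunit of the Fanconi anemia core complex, and held 6 CpG dinucleotides at 52.3% GC.
PPP2R1A: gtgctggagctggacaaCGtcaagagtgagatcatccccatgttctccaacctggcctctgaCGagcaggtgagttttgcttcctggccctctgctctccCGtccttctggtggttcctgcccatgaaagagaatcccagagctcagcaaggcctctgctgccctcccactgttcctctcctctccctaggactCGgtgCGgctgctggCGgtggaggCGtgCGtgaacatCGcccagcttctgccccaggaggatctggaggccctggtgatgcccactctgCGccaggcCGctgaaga
FANCA intron: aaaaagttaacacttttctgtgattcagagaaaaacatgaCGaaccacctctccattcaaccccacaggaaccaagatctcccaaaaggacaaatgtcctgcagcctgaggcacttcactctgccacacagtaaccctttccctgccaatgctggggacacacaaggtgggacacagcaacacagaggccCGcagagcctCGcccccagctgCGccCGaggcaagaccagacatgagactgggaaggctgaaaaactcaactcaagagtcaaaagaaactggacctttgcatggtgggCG

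Most late regions without H3K4me1 were weak calls, and almost none reached the top of their list. Strength was read as the percentile of a peak's −log10 p among all peaks of its own list, which ranks 49127 and 46638 peaks in the WT 10 h lists. The median percentile was 34.7 in replicate 1 and 30.0 in replicate 2 (mean 32.4 ± 3.30, SD, n = 2 lists). Late regions with H3K4me1 lay slightly higher, at 38.5 ± 2.11, and the 21689 regions called in both WT 0 h and both WT 10 h lists (kept regions) lay at 76.8 ± 0.821. Only 0.0647% of the late regions without H3K4me1 in replicate 1 and 0.0216% in replicate 2 fell in the highest 25% of their list. The median −log10 q was 4.26 and 3.98, against a lowest deposited value of 1.30 in both lists, and −log10 q reached 5 in 36.5% and 31.0% of them. In 969 regions it reached 5 in both lists. The WT 10 h lists were longer than the WT 0 h lists, which held 33976 and 32739 peaks. Over all peaks, the median −log10 q was 6.97 and 7.73 in the WT 10 h lists and 17.8 and 18.4 in the WT 0 h lists. The part of this contrast between lists in calling weak regions late was not tested. In the plot of strength by list, both late sets sat in the lower part of the list and the kept regions in the upper part.

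**Figure D1:**
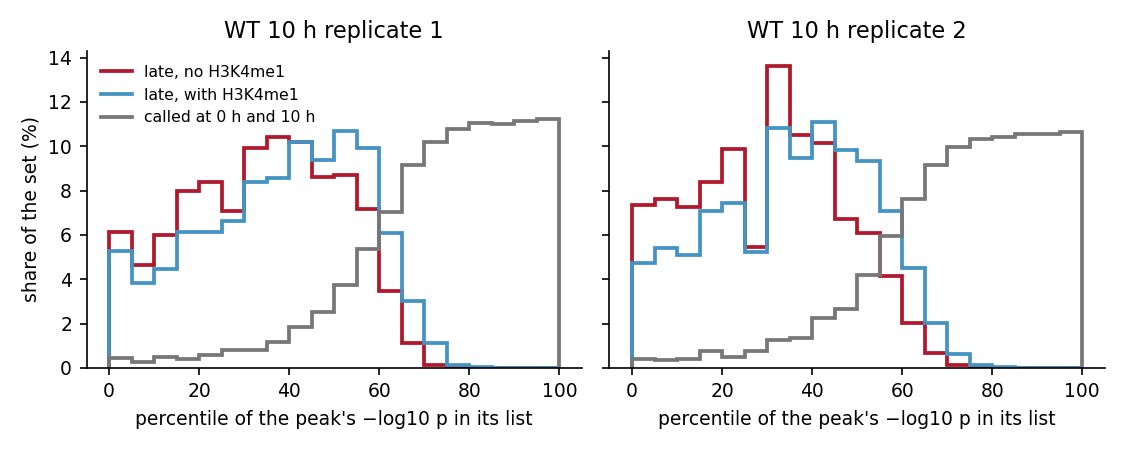
Share of each set (y axis, %) by percentile of its strongest peak's −log10 p within the list (x axis, steps of 5 percentile points), for both WT 10 h H3K27ac lists. Late regions without H3K4me1 (red) had medians of 34.7 and 30.0, and kept regions (grey) lay mostly above the 50th percentile.

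The enrichment behind these calls was modest. The median fold over background at the summit was 3.84 in replicate 1 and 3.78 in replicate 2, compared with 15.1 and 15.6 at kept regions. Solving each peak's fold and p-value together put the summit pileup at a median of 15.8 and 15.0 fragments, over a local background of 3.18 and 3.13 fragments. The replicates ranked these regions only loosely, with a Spearman's rho of 0.470 across 4637 regions, against 0.576 across late regions with H3K4me1 and 0.980 across kept regions. These rho values describe regions of the same 2 libraries, which are not independent replicates. In a bulk assay a mark in fewer cells and a weaker mark in every cell cannot be told apart.

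The regions were also narrow. Their median width was 872 bp, with a range from 259 to 8115 bp, whereas late regions with H3K4me1 had a median of 1171 bp and kept regions of 2322 bp. With the rule applied without WT 10 h replicate 2 the median width was 559 bp, and without replicate 1 it was 589 bp. The widest was in TFDP1, the dimerization partner of E2F factors, at chr13:114277667-114285781. Wide regions also lay in FANCA, with 7636 bp, in SCRIB, which encodes a cell polarity protein, with 7217 bp, and in HGS, which encodes an endosomal sorting protein, with 7138 bp. Each of these 4 wide regions was also called in both RAD21 0 h lists. These widths are of merged regions, so peaks of the other lists widen them, and width and calls elsewhere are tied. The WT 10 h peaks themselves had median widths of 592 and 520 bp in replicates 1 and 2. They were 688 and 631 bp at late regions with H3K4me1 and 1715 and 1722 bp at kept regions. At the other end, the 5 lowest ranked regions had mean percentiles from 0.453 to 1.75, and 4 of them lay in the introns of HELLS, ACSF3, WNK1 and KPNB1.

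Absence of H3K4me1 was seldom a near miss. The nearest H3K4me1 peak lay at a median distance of 4953 bp, and 4018 of the 4637 regions (86.7%) had none within 1000 bp. At the border of the rule, the 5 closest regions kept lay 0, 2, 4, 5 and 12 bp from an H3K4me1 peak, and the 5 closest left out overlapped one by 1, 3, 3, 4 and 4 bp. Among late regions with H3K4me1, 3183 of 5381 (59.2%) were overlapped in all 6 lists and 583 (10.8%) in a single list. By comparison, of the kept regions only 133 lacked H3K4me1.

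The 10 strongest regions mixed regions outside coding genes and introns of broadly expressed genes. The region at chr19:53797461-53799667 led with percentiles of 78.6 and 76.0 and folds of 19.1 and 18.0 in the WT 10 h replicates. It was also called in WT 1 h replicate 1 and in both RAD21 0 h lists. CLTC, encoding the clathrin heavy chain, followed at chr17:57750133-57756545 with percentiles of 76.5 and 75.0. It was called in 5 of the 6 H3K27ac lists whose calls the rule did not use. The intron of PPP2R1A (73.5 and 73.1) was the single region of these 10 called in all 6. The CCNG2 region reached 75.3 and 70.9 and was called elsewhere only in WT 1 h replicate 2. GUSB, a lysosomal glucuronidase, reached 71.4 and 69.8, SSH1, a cofilin phosphatase, 72.6 and 67.6, and FANCA 68.2 and 68.9. PRKDC, the catalytic subunit of DNA-PK, reached 66.2 and 69.4. The remaining pair lay on chromosomes 4 and 6, in annotated genes of a class other than protein-coding. They had percentiles of 74.9 and 74.6 and of 70.7 and 70.5. Of these, the window on chromosome 4 had a GC content of 74.0% and repeated itself with a period of 99 bases, at which 96.5% of bases were identical.

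Late regions without H3K4me1 lay almost wholly inside coding genes. Of 4637 regions, 4403 (94.95%, 95% Wilson interval 94.3 to 95.6) overlapped a coding gene body, a feature that covers 45.7% of the genome. The share was 82.5% for late regions with H3K4me1 and 76.6% for kept regions. Peaks without H3K4me1 in other lists also lay largely in coding gene bodies, counted here outside promoters. The share was 86.8% and 87.8% at RAD21 0 h, 90.7% and 91.1% at RAD21 1 h and 86.7% in WT 1 h replicate 2. It was 62.1% and 60.1% at WT 0 h and 51.0% in WT 1 h replicate 1. The location is thus not particular to the late regions. Summits fell in introns in 84.0% of cases, in coding exons in 5.15% and in 3′ UTRs in 4.42%. Coding promoters were overlapped by just 64 regions (1.38%), compared with 4.03% of late regions with H3K4me1 and 50.0% of kept regions. A low share follows in part from the rule, which removes regions with H3K4me1 or with H3K27ac at WT 0 h. The strongest of these 64 were at SEC16A, NPIPA8, GBA2, TRPV1 and RNF166, with mean percentiles from 56.8 to 64.5. After them came THSD1, XPO1, SPG21, KNTC1 and NPLOC4, from 45.9 to 54.8. NPIPA8 belongs to a family of near-identical copies, so reads there may be shared among copies.

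Within their genes the regions seldom lay at the start and leaned toward the end. The rule removes regions with WT 0 h H3K27ac or H3K4me1. Promoters of 96.6% of the host genes were called in both WT 0 h lists. The scarcity at the start, also relative to kept regions, is thus in part set by the rule. Of 4380 regions placed in a coding gene, the median lay at 59.8% of the gene's length from its start, and 61.3% lay past the midpoint. The first 10% of the gene held 2.69% of them, whereas it held 8.82% of late regions with H3K4me1 and 46.7% of kept regions. From there the share per 10% of gene length went up to 12.9% in the 8th step and was 12.6% at the end. Among the 944 genes that held both kinds of late region, those without H3K4me1 lay nearer the gene end in 669 (70.9%). Among 1866 genes that held a kept region too, this was so in 1701 (91.2%). The plot of position along the gene shows the late regions without H3K4me1 with a profile opposite to that of the kept regions.

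**Figure D2:**
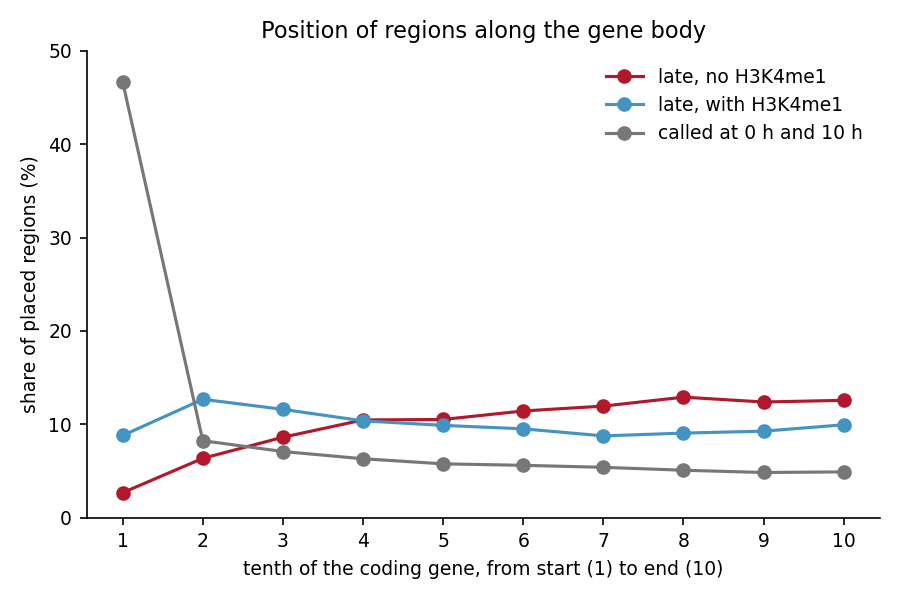
Share of regions placed in a coding gene (y axis, %) in each of 10 equal steps from the gene's start to its end (x axis). Late regions without H3K4me1 (red) went from 2.69% at the start to 12.6% at the end, and kept regions (grey) had 46.7% in the first step.

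Most regions had H3K4me1 in the same gene on both sides. Of 4213 regions for which the host gene was assessed, this was so for 2414 (57.3%). Where H3K4me1 lay on a single side, that side was the gene start for 1766 regions (41.9%) and the gene end for 20 (0.475%), and 13 regions lay in a gene without any.

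The host genes were nearly all genes with an acetylated promoter in WT cells at 0 h. At least 1 region lay in 2302 of 19548 coding genes (11.8%). Of these hosts, 2224 (96.6%) had a promoter called in both WT 0 h lists, compared with 61.3% of all coding genes. Among genes with such a promoter 18.6% were hosts, and among the rest 1.03%. The contrast was present in every gene length bin examined, for example from 20000 to 50000 bp, where 26.8% of genes with a called promoter and 1.59% of genes without were hosts. Hosts had a median length of 44276 bp against 26868 bp for all coding genes. There were 1313 hosts with 1 region, 536 with 3 or more and 20 with at least 10.

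The gene with most regions was PRKDC, with 25. Next came FANCA with 19, BAZ1B, a chromatin remodeling subunit, with 17, and IARS1, an isoleucyl-tRNA synthetase, with 17. MAD1L1, a spindle checkpoint protein, held 15, as did MDN1, a ribosome maturation ATPase, and PDCD11, an rRNA processing factor, held 14. A further 9 genes held 11 each, among them XPO1, the nuclear export receptor, SUZ12, a Polycomb subunit, and CNOT1, the scaffold of the CCR4-NOT deadenylase. All of the genes named here with 14 or more had a promoter called in both WT 0 h and both RAD21 0 h lists.

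FANCA was the most fully covered of the 7 genes with 14 or more regions. Its 19 merged regions covered 54102 bp, or 59.9% of a gene of 90295 bp at chr16:89793091-89883385 (minus strand). These extents include peaks of the RAD21 and WT 1 h lists. The cover by WT 10 h peaks alone was not measured, here or for the other genes. None of its late regions overlapped H3K4me1. The next highest of the 7 was PDCD11, with 44.7% covered. Of the 19 FANCA regions, the RAD21 0 h lists called 14 and 15, the RAD21 1 h lists 8 and 12, and the WT 1 h lists 0 and 8. Thus most were present in RAD21 cells without Nutlin-3a. In PRKDC, by contrast, the RAD21 0 h lists called 7 and 10 of 25 and the WT 1 h lists 0 and 5.

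**Figure D3:**
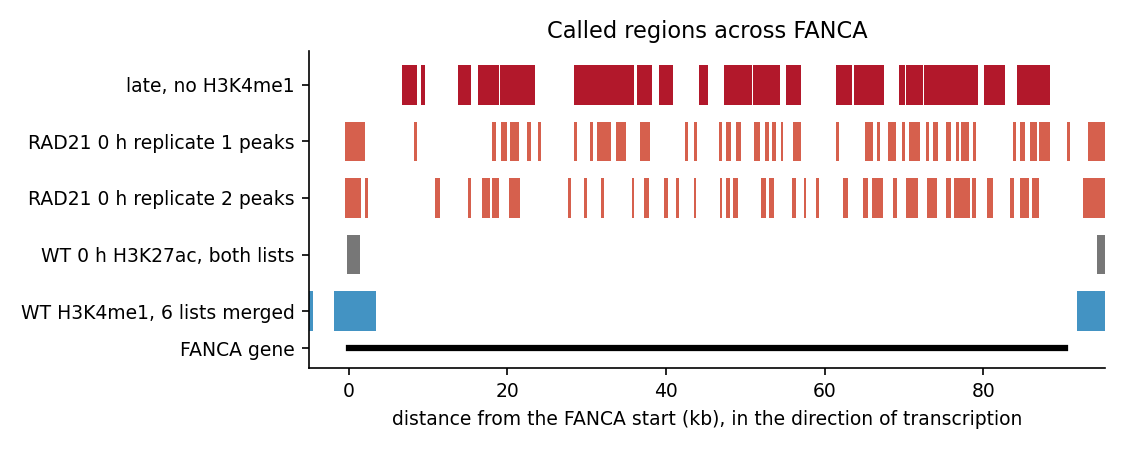
Called regions along FANCA by distance from its start (x axis, kb, in the direction of transcription), with late regions without H3K4me1 in red, RAD21 0 h peaks in orange, merged WT 0 h H3K27ac peaks in grey and merged WT H3K4me1 peaks in blue. The 19 late regions cover 59.9% of the gene, while WT 0 h H3K27ac and H3K4me1 peaks lie near its ends.

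Many genes of cell division held these regions. Of 36 DREAM-regulated cell cycle genes, 23 (63.9%) held at least 1, with 73 regions in all, against 11.8% of all coding genes and 18.6% of those with a promoter called in both WT 0 h lists. Besides FANCA these included AURKA, a mitotic kinase, KIF23, a cytokinesis motor, and TOP2A, a topoisomerase, with 5 each, and BUB1, a checkpoint kinase, and MCM5, a replicative helicase subunit, with 4 each. CCNB1, CDK1 and FOXM1, which drive entry into mitosis, held 2, 1 and 1. The list's median gene length was 25047 bp, below that of all coding genes. That length falls in the bin from 20000 to 50000 bp, where 26.8% of genes with a called promoter were hosts. This was the highest share among the length bins examined. The part of gene length in the share of this list was not tested. None of the 73 regions overlapped a coding promoter, and 19 of them lay in FANCA. This list, like the other gene lists, was chosen with earlier results of these data known.

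Of 40 canonical p53 targets, 4 (10.0%) held a region, each a single one, a share near the 11.8% of all coding genes. The difference from the cell cycle list was not tested. These were POLH, a translesion polymerase, TNFRSF10B, a death receptor, RRM2B, a ribonucleotide reductase subunit, and DDB2, a DNA damage sensor. POLH was the strongest of the 4, with percentiles of 43.9 and 48.1 in the WT 10 h lists, and was called elsewhere in WT 1 h replicate 2. No region lay in CDKN1A, MDM2 or the other targets of the list. Of 30 chromatin and cohesin genes, whose median length is 88178 bp, 17 (56.7%) held 49 regions. Among them were SMARCA4 and NSD2 with 8 each and EP300, the acetyltransferase that writes H3K27ac, with 6. Of 34 translation and housekeeping genes, 9 (26.5%) held 28 regions, with EIF3A, an initiation factor subunit, at 7. Of 32 intestinal and Wnt genes, RNF43, a Wnt receptor ubiquitin ligase, and CD44 were the hosts (6.25%).

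By chromosome the regions were densest on 19, 22, 16 and 17 and sparse on X. Their density per Mb of coding gene body was 10.2 on chromosome 19, 9.85 on 22, 8.70 on 16 and 8.63 on 17, compared with 3.54 on chromosome 1. On X it was 0.530, from 28 regions. Relative to kept regions there were 4.90 per 100 on X, against 13.2 on chromosome 6, the lowest autosome, and 42.6 on chromosome 21 and 37.9 on chromosome 16, the highest pair. Late regions with H3K4me1 were also densest on chromosome 19, at 12.9 per Mb, and sparse on X, at 0.947. The sets differed on chromosome 21, with 6.89 per Mb without and 3.48 with H3K4me1, and on chromosome 11, with 2.83 and 4.45. Copy number in HCT116 was not accounted for.

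**Figure D4:**
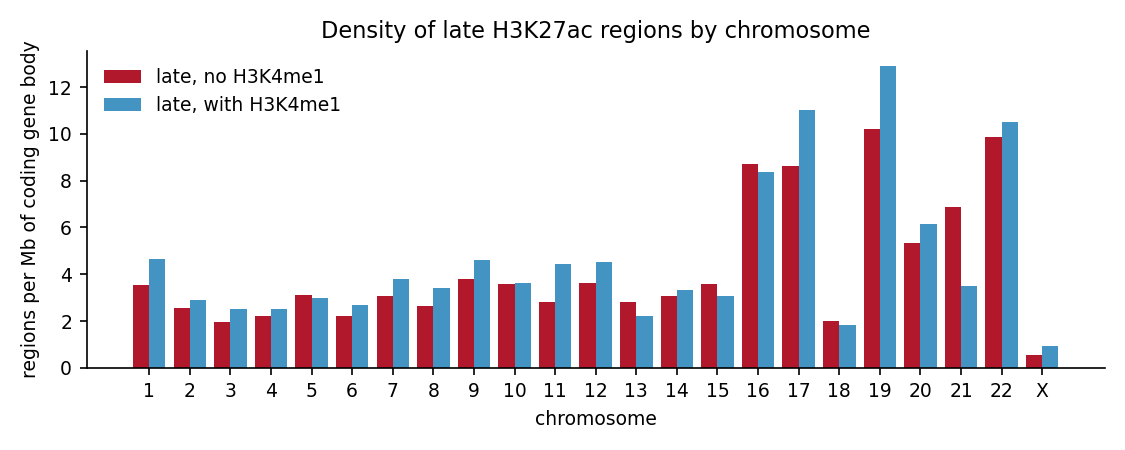
Late H3K27ac regions per Mb of coding gene body (y axis) on each chromosome (x axis), without H3K4me1 in red and with H3K4me1 in blue. Chromosome 19 had the highest density of both sets (10.2 and 12.9) and X the lowest of those drawn (0.530 and 0.947).

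The 6 H3K27ac lists whose calls the rule did not use called few of these regions. Their peaks did help set the merged extents on which overlap with WT 0 h H3K27ac and H3K4me1 was judged. These 6 lists thus had a part in membership. WT 1 h replicate 1 called 71 of 4637 (1.53%) and replicate 2 called 572 (12.3%), against 32.8% and 41.6% of all merged regions. In RAD21 cells at 0 h, 1021 (22.0%) and 1279 (27.6%) were called, where 39.9% and 43.1% of all regions were. After 1 h of Nutlin-3a the RAD21 lists called 670 (14.4%) and 659 (14.2%), where 40.8% and 40.2% of all regions were. The RAD21 0 h lists thus held more of them than the lists of either line at 1 h. At least 1 of the 6 lists called 2173 (46.9%), compared with 77.2% of all regions, and 2464 (53.1%) were called in none. Wilson intervals on these shares cover counting error only.

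Compared with late regions with H3K4me1, those without were called less often in each of the 6 lists. The shares with H3K4me1 were 8.51% and 43.1% at WT 1 h, 34.3% and 40.3% at RAD21 0 h and 43.2% and 44.4% at RAD21 1 h. The mean difference was −20.3 percentage points (SD 10.8, n = 6 lists, lower in 6 of 6). An exact two-sided sign-flip permutation test gave p = 0.03125, the smallest it can give with 6 lists, and 0.03125 after Benjamini-Hochberg adjustment over 4 measures. The test treats the 6 lists as separate units, although they are replicate pairs from WT 1 h, RAD21 0 h and RAD21 1 h and score the same regions. Peaks of these lists also widen merged regions, which can bring a region into overlap with an H3K4me1 peak. Membership and calls are therefore not separate. With WT 10 h replicate 1 peaks in place of merged regions, the difference was −23.5 points with the same exact permutation p of 0.03125. Where regions were called, those without H3K4me1 also lay 11.1 percentile points lower (SD 4.17), had folds lower by 0.52 (SD 0.213) and peaks narrower by 157 bp (SD 106), each in 6 of 6 lists with the same exact permutation p of 0.03125. In an alternative chosen after seeing the data, among regions of 500 to 1500 bp, of which there were 3123 without and 3158 with H3K4me1, the difference was −14.8 points with the same p. Median widths in this range still differed, at 848 and 953 bp. The plot of calls by list shows the gap narrowest in WT 1 h replicate 1 and wide in both RAD21 1 h lists.

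**Figure D5:**
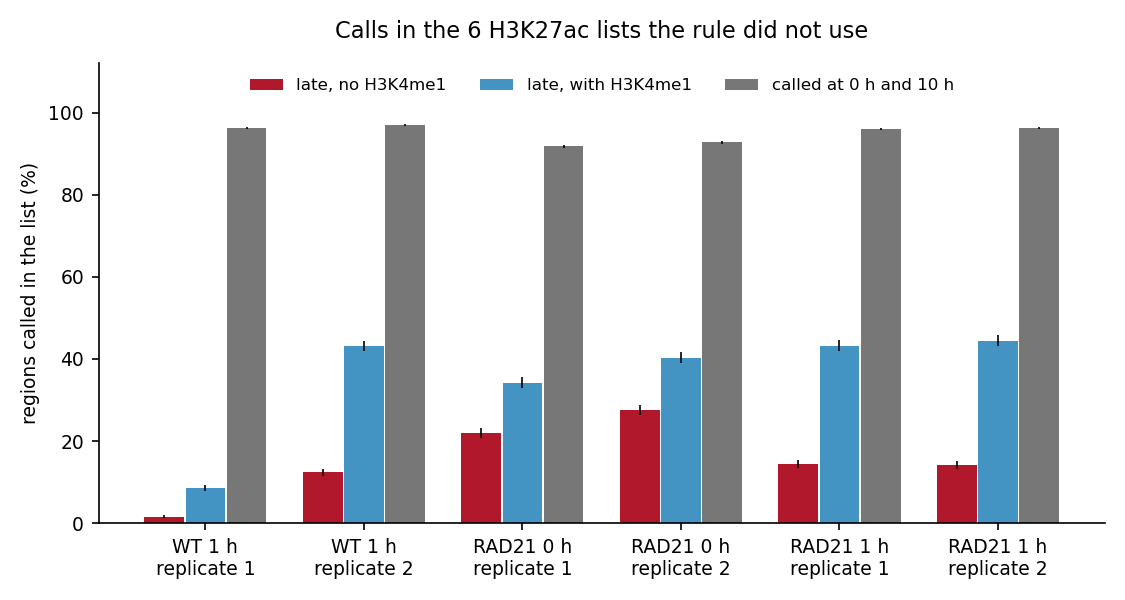
Share of regions called (y axis, %, starting at 0) in each of the 6 H3K27ac lists whose calls the rule did not use (x axis), with 95% Wilson intervals. Late regions without H3K4me1 (red) were called less often than those with H3K4me1 (blue) in all 6 lists, and kept regions (grey) were called at 91.8% or more.

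In the RAD21 line both 1 h lists called fewer late regions without H3K4me1 than either 0 h list. The share called was 14.3 ± 0.168% at 1 h and 24.8 ± 3.93% at 0 h (SD, n = 2 lists each), a difference of −10.5 points. The lists of the 2 times did not overlap, yet an exact permutation test of 2 against 2 lists gave p = 0.333, the smallest it allows. The lists also differed as a whole. Over all peaks, the median −log10 q was 14.5 and 19.9 at 1 h and 8.31 and 7.81 at 0 h. The median fold was 7.21 and 7.57 at 1 h and 5.51 and 4.52 at 0 h. The part of this in the difference in calls was not tested. Late regions with H3K4me1 were ordered the other way, at 43.8% at 1 h and 37.3% at 0 h. Both RAD21 0 h lists called 611 of the 4637 regions (13.2%; 8.35% and 8.14% with the rule applied without WT 10 h replicate 1 or 2), where 30.1% of all regions were called, and 1365 (25.4%) of late regions with H3K4me1. Counted by list agreement, 74 regions (1.60%) were gained at 1 h (both 1 h lists, neither 0 h list), where 4.6% of all regions were. Another 284 (6.12%) were lost (both 0 h lists, neither 1 h list), where 2.87% of all regions were.

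The RAD21 0 h lists also held regions of this kind that were absent at WT 0 h. Both RAD21 0 h lists, neither WT 0 h list and no WT H3K4me1 list called 1786 regions, of which 92.4% overlapped a coding gene body. Of these, 1175 were not called in both WT 10 h lists, and 90.3% of those overlapped a coding gene body. Per list, peaks without H3K4me1 made up 24.9% and 22.3% of the WT 10 h lists and 19.1% and 21.6% of the RAD21 0 h lists. They made up 9.09% and 8.18% of the RAD21 1 h lists, 7.60% and 5.69% of the WT 0 h lists, and 4.77% and 10.5% of the WT 1 h lists.

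The form of the peak names differed among the lists and cannot be told apart from time in the WT comparison of 0 h with 10 h. The names in WT 0 h replicates 1 and 2 and WT 1 h replicate 1 lack the word input, which the other 7 H3K27ac lists carry. The study's methods give an input control for peak calling, and whether these 3 lists had one cannot be read from the files. At kept regions, of which every 10th was solved (1354 to 2073 values per list), the estimated local background had a median of 13.2, 11.2 and 11.4 fragments in those 3 lists and from 2.13 to 3.71 in the other 7. Within WT 1 h, replicate 1 (without the word) called 71 of the late regions without H3K4me1 and replicate 2 (with it) 572. With both RAD21 0 h lists as the reference for absence in place of WT 0 h, 2948 of the 4637 (63.6%) were still absent. With WT 1 h replicate 2 as the reference, 4065 (87.7%) were. The part of this difference in the late calls was not tested.

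Stronger regions were called more widely. Ranked by mean percentile, the lowest 928 regions had a median width of 662 bp and 39.1% of them were called in at least 1 of the 6 other lists. The highest 928 had a median width of 1330 bp, and 56.7% were called. Width and calls are not separate here, since peaks of the other lists widen a merged region. Both RAD21 0 h lists called 9.48% of the lowest and 19.9% of the highest 928. Their share in coding gene bodies was 96.4% and 92.1%.

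In GC and CpG content the sequence under the summits was near that of the other late regions and below that of kept regions. The median GC content of the 300-base windows was 50.3%, compared with 51.0% for late regions with H3K4me1 and 60.3% for kept regions. Windows held a median of 4 CpG dinucleotides in both late sets and 15 in kept regions. The GC box (GGGCGG, either strand) was present in 8.99% of windows, against 12.1% with H3K4me1 and 30.2% of all 33562 regions called in both WT 10 h lists. The AP-1 motif (TGANTCA with C or G at the open position), a common enhancer sequence, was present in 3.39% of windows (95% Wilson interval 2.90 to 3.95), against 7.40% of those with H3K4me1 (6.73 to 8.13), 8.05% of kept regions (7.69 to 8.42) and 7.46% of all. The TATA box (TATAAA) was present in 12.9% of windows, 11.8% of those with H3K4me1 and 9.56% of all, and the CCAAT box (CCAAT) in 23.5%, 24.1% and 22.0%. An exact match to the CTCF core was in none of the 4637 windows, in 0.112% of those with H3K4me1 and in 0.158% of all. Motifs were searched on both strands and matches are descriptions of letters only.

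An exact p53 response element was rare and lay mostly outside coding genes. It was present in 13 of 4637 windows (0.280%), against 0.595% with H3K4me1, 0.0968% of kept regions and 0.223% of all regions called in both WT 10 h lists. Over whole regions, 23 held it, 13 of them outside coding gene bodies. That is 4.62 regions per Mb, against 7.30 with H3K4me1, 0.813 for kept regions and 1.88 for all. The 23 include the strongest region, on chromosome 19, whose window holds no match. Of the 13, 9 lay outside coding gene bodies, where only 234 (5.05%) of the late regions without H3K4me1 lay. The element was thus present in 3.85% of windows outside coding gene bodies and in 0.0908% of those overlapping one. Other sets showed the same lean. Of late regions with H3K4me1 that held the element, 59.4% lay outside coding gene bodies, against 17.5% of that set. For all regions called in both WT 10 h lists the shares were 60% and 19.8%. By strength, 6 of the 13 had a mean percentile of at least 50, as did 593 (12.8%) of all 4637. CCNG2 (73.1) was followed by the chromosome 5 region printed above (67.0) and by regions on chromosomes 4 (62.9) and 8 (61.7) and in LYST (59.9), a lysosomal trafficking gene. Of the 13, none was called in WT 1 h replicate 1, RAD21 0 h replicate 1 or RAD21 1 h replicate 1. WT 1 h replicate 2 and RAD21 0 h replicate 2 called 2 each and RAD21 1 h replicate 2 called 1. Thus 9 (69.2%) were called in none of the 6 lists, against 53.1% of all 4637. Among the 32 late regions with H3K4me1 that held the element, 23 (71.9%) were called in none, against 26.2% of all late regions with H3K4me1.

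The 17-base run shared by the CCNG2, chromosome 19 and chromosome 6 windows was found and chosen after their values were seen. Aligned in pairs, these 3 windows were 72.8%, 75.4% and 75.1% identical over 173 to 235 alignment columns. The run occurred in 12 of the 4637 regions, 9 of them outside coding gene bodies, in 6 late regions with H3K4me1 and in 7 of 21689 kept regions. The 12 had a median mean percentile of 57.3, from 13.1 to 77.3, and 4 of them held an exact p53 response element somewhere in the region. Of the 12, 10 were called in none of the 6 other lists, as were 53.1% of all 4637. Near-copies of a sequence can share reads. The authors removed low-quality reads, but the limit they used, which bears on reads with several placements, is not given in the sources used here.

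The 234 regions outside coding gene bodies, 5.05% of all, held 3 of the 10 strongest and 13 of the 100 strongest. Their median mean percentile was 34.7 against 30.3 for the 4403 intragenic regions. WT 1 h replicate 1 called 6.41% of them and 1.27% of the intragenic regions, whereas the RAD21 0 h lists called 14.1% and 20.1% of them and 22.4% and 28.0% of the intragenic regions.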

How the data were processed

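H3K27ac was measured in 10 ChIP samples and H3K4me1 in 6, and the 10 input samples were not used here. Per the study's methods and the labels, the authors trimmed reads with Trim Galore 0.6.6, mapped them to GRCh37.p13 with Bowtie2 2.3.2, removed low-quality, duplicate and blacklisted reads, and called peaks per sample with MACS2 2.2.7.1, narrow for H3K27ac and broad for H3K4me1, with an input control; for 3 lists, whose peak names lack the word input, its use cannot be read from the files. The deposited lists hold, for each peak, the ratio of pileup to local background (fold) and the −log10 of its p-value and q-value; they carry no depth. The study set a minimum depth per mark and tabulated library statistics, which were not used here, so no interval rests on depth. The lowest −log10 q of a list lay between 1.301 and 1.327 for H3K27ac and between 1.007 and 1.025 for H3K4me1.

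The members and gene lists were chosen with earlier results of these data known. Peaks were merged where they overlapped or touched, and presence required 1 bp. Genes came from GENCODE v44lift37 and sequence from GRCh37; promoters ran from 1000 bp before to 200 bp after a coding transcript start. Summit pileup and background were solved from fold and p-value, a step that on 500 simulated peaks came within 0.1 fragment in 80.4% and was otherwise high by a median of 1.65 fragments. The merging rule, the overlap search and the sign-flip test were tested on simulated data. Shares carry 95% Wilson intervals. Lists were compared by exact permutation tests, with each list as a unit. Labels call replicates BR, and p-values refer only to differences among these lists. Named regions were the 10 highest and 5 lowest by mean percentile, the 5 widest, the 10 highest at promoters and the 3 highest per gene list; named genes were those with most members. Of the 5 widest, 1 is not reported here. Python 3.11.15 with pandas 2.3.3, scipy 1.17.1 and pysam 0.24.0 was used. Alternatives covered peak strength, H3K4me1 strength and margin, overlap, merging, the reference lists and leaving out each replicate.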

Additional observations from a re-analysis of the deposited data

How the results depend on the processing

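Requiring a −log10 q of at least 5 in both WT 10 h lists left 969 regions, with a median percentile of 52.4, a width of 1299 bp, 92.6% in coding gene bodies and 19.8% in both RAD21 0 h lists. Peaks covering at least 50% of the region left 3071 (percentile 36.0, width 769 bp). Absence from both RAD21 0 h lists as well left 2948 (width 721 bp, 94.0% in bodies). Excluding only by H3K4me1 peaks with −log10 q of at least 5 gave 93.5% in bodies, and unmerged peaks a width of 590 bp. Chosen after seeing the data, the RAD21 0 h reference gave 727.5 bp and 93.5%, and the WT 1 h replicate 2 reference 94.1%. Leaving out one replicate at a time, the number ran from 4651 to 10493, the percentile from 21.9 to 32.5 and the width from 559 to 886 bp. The share in bodies ran from 94.55% to 94.97% and that in both RAD21 0 h lists from 8.14% to 13.8%. Without RAD21 0 h replicate 1 the remaining RAD21 0 h list called 27.6%, and without replicate 2 it called 22.0%. The counts of 8692 and 10493 came without WT 10 h replicate 1 and without replicate 2. The difference in calls from late regions with H3K4me1 ran from −23.1 to −17.3 points; without 1 of the 6 lists its exact p was 0.0625, the smallest 5 lists allow. The RAD21 difference of 1 h from 0 h ran from −13.3 to −7.48 points. With the replicate block it was −10.5 points (exact p = 0.5, the smallest possible); replicate numbers did not pair the samples (r = −0.03 across 22451 regions). No direction changed under these alternatives. Library depth was not used here, and the lists alone do not separate missing from undetected signal.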
